A study of Mus musculus with 8 samples.

Results

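The genes described are 10 intermediate filament genes of the mouse, found as the rows of the count table named Krt5, Krt7, Krt8, Krt14, Krt18, Krt19, Krt80, Vim, Nes and Synm. All 10 were among the 55353 rows of the table. They were picked with their levels across the genotypes already known, so their levels and changes are given as a description and no p-value is given for any of them. Aortic vascular smooth muscle cells of the mouse were used, brought back into culture from frozen stocks, and mRNA was sequenced after polyA enrichment. The cells were E12 knockout (KO), E12 wild type (WT), E47 KO or E47 WT, with 2 libraries for each genotype and 8 libraries in all. E12 and E47 are splice isoforms of the E protein E2A, encoded by Tcf3, which binds DNA at E-box sequences. The sources used here do not give how the knockouts were made, nor whether a genotype is more than 1 cell population. Separate cultures or animals are not stated for the 2 libraries of a genotype, so every p-value measures only the spread between these libraries, which may be technical.

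Intermediate filaments are rope-like polymers that give cells mechanical strength. Keratins are obligate heteropolymers of an acidic type I chain and a basic type II chain, and Krt8 with Krt18 and Krt5 with Krt14 are the classical pairs of simple and basal stratified epithelia. Vimentin is the type III filament protein of mesenchymal cells, and nestin and synemin copolymerise with vimentin or desmin rather than forming filaments alone. In smooth muscle, desmin and vimentin are the usual filament proteins, and keratins are known mainly from epithelia and mesothelium.

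Library totals ran from 13909230 to 27517374 counts. Levels are given as CPM, the count relative to the library size after edgeR's TMM scaling, and 3 counts in a library made 0.117 to 0.224 CPM. Tcf3 was at 145 and 143 CPM in E12 KO, 109 and 108 CPM in E12 WT, 128 and 128 CPM in E47 KO, and 94.6 and 93.7 CPM in E47 WT, and a count per gene does not separate its isoforms. The smooth muscle marker Acta2 averaged 1639 CPM in E12 KO, 1955 CPM in E12 WT, 2109 CPM in E47 KO and 3569 CPM in E47 WT. The contractile myosin Myh11 averaged 2.43 CPM in E12 KO, 7.45 CPM in E12 WT, 6.93 CPM in E47 KO and 98.3 CPM in E47 WT. The E47 WT libraries stood apart in another way. The summed level of 10 endothelial markers was 5.22 to 5.65 CPM in E12 KO, 9.05 to 10.9 CPM in E12 WT and 4.48 to 7.08 CPM in E47 KO, but 683 to 751 CPM in E47 WT. Of the 10 markers, Cldn5 had no count in any genotype. Every comparison with E47 WT carries this difference. Genotypes are said below not to overlap where both libraries of 1 lie above both of the other, which was common. Of the 13992 genes that passed the filter on low counts, 71.3% did not overlap between E12 KO and E12 WT. For E47 KO and E47 WT the share was 77.6%, between the wild types 76.7% and between the knockouts 76.4%.

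The keratin make-up of the cells differed most in E47 WT, where Krt18 stood in the place that Krt19 held in the other genotypes. On levels per kilobase of exon, which allow genes to be compared with each other, Krt19 made up 86.2% and 86.8% of the summed level of 52 keratin genes in E12 KO. It made up 93.6% and 92.9% in E12 WT and 88.0% and 89.4% in E47 KO. In E47 WT, Krt19 made up 7.01% and 8.39% and Krt18 made up 89.7% and 88.4%. The summed keratin level was 103 and 111 CPM per kb in E12 KO, 236 and 211 CPM per kb in E12 WT, 90.9 and 94.3 CPM per kb in E47 KO, and 94.8 and 87.5 CPM per kb in E47 WT. E12 WT thus had the highest keratin total, and the E47 genotypes overlapped in theirs. In these bulk libraries, fewer cells carrying a transcript and less of it per cell cannot be told apart.

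**Figure D1:**
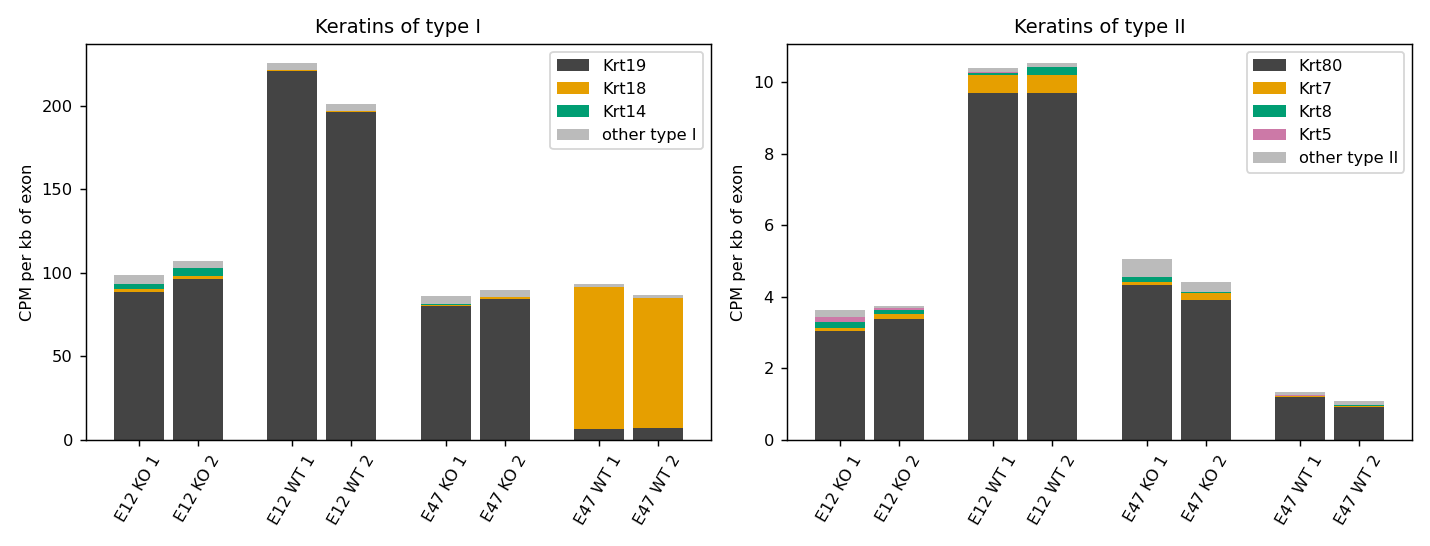
Stacked bars of keratin levels in CPM per kb of exon in each of the 8 libraries, with type I keratins on the left and type II keratins on the right, on separate vertical scales that start at 0. Type I totals lie between 85.8 and 226 CPM per kb and are mostly Krt19 except in E47 WT, where they are mostly Krt18, while type II totals lie between 1.08 and 10.5 CPM per kb.

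Type I keratins exceeded their type II partners in every library. The ratio of summed type I to summed type II level per kb was 27.3 and 28.7 in E12 KO, 21.7 and 19.0 in E12 WT, 17.0 and 20.4 in E47 KO, and 69.2 and 80.2 in E47 WT. The type II share of all keratin was 5.56% and 4.67% in E47 KO, against 1.42% and 1.23% in E47 WT, the lowest of the 4 genotypes. These sums cover 28 type I and 24 type II genes that were in the table with an annotated exon length.

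The start regions of Krt18 and Krt8 are shown because these neighbouring partner genes, the first type I and the second type II, had opposite extremes of level in E47 WT. Each sequence is RefSeq's window on GRCm38.p6 from 250 bases before to 50 bases after the annotated start, with E-boxes (CANNTG, a pattern that reads the same on both strands) in capitals. Krt18 is from chr15:102027966-102028265 on the plus strand and Krt8 is from chr15:102004293-102004592 on the minus strand.
Krt18: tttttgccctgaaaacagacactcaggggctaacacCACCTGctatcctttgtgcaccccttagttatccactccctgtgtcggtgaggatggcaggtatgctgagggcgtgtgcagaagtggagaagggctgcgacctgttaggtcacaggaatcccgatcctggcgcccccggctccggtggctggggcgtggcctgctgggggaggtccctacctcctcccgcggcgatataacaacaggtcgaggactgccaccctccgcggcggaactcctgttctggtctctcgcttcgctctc
Krt8: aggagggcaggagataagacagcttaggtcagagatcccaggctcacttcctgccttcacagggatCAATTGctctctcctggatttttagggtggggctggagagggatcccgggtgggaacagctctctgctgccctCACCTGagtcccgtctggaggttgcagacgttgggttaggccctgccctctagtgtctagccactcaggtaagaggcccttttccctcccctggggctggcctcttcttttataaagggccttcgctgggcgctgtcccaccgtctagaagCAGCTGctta
The Krt18 window holds 1 E-box, CACCTG, and the Krt8 window holds 3, of which 1 is CACCTG and 1 is CAGCTG. Of 32851 windows of this length, 72.3% hold CANNTG, 20.2% hold CAGGTG on either strand, and 16.3% hold CAGCTG, so a match is common and is no evidence of binding.

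Krt18, the type I keratin of simple epithelia, was at 2.37 and 2.53 CPM in E12 KO and at 0.319 and 0.748 CPM in E12 WT, a log2 change of 2.22 (SE 0.324). In the E47 line it was at 1.09 and 1.27 CPM in KO and at 122 and 111 CPM in WT, a log2 change of -6.63 (SE 0.140). Both E47 WT libraries lay far above all 6 others, and no genotype overlapped another. Krt8, its type II partner, had 7 and 4 counts in E12 KO, 2 and 6 counts in E12 WT, 5 and 1 counts in E47 KO, and 0 and 1 counts in E47 WT. The 26 Krt8 counts of all libraries were too few for the filter on low counts, and the partner was thus at its lowest where Krt18 was at its highest. The ratio of Krt18 to Krt8 per exon length was 11.3 in E12 KO (95% exact Clopper-Pearson interval 6.01 to 23.4, counting error only) and 2.56 in E12 WT (1.02 to 6.96). It was 9.08 in E47 KO (3.83 to 26.2), against 6199.7 in E47 WT (1112 to 244926), where 4550 Krt18 counts stood beside 1 Krt8 count.

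The low Krt8 count was checked against gene copies. In GRCm38, Krt18 lies on chromosome 15 from 102028180 to 102032027 on the plus strand and Krt8 from 101996698 to 102004482 on the minus strand. Of the stretches of 100 bases in annotated Krt8 transcripts, 17.1% also occur in another annotated gene, almost all in the pseudogene Krt8-ps, which had 0 counts. No stretch of Krt18 does so. The exons of Krt8 also overlap Gm36026 over 5.2% of their length, and without strand those reads cannot be told apart. How reads shared by Krt8 and Krt8-ps were counted is not given, so the 0 counts do not show whether Krt8 reads were lost. Copies outside the annotated transcripts were not analysed here.

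The summed endothelial level was highest in the same libraries as Krt18. Of 9 endothelial markers tested, 9 fell and 0 rose in E47 KO against E47 WT (edgeR's quasi-likelihood test, Benjamini-Hochberg adjusted p under 0.05), where 55.2% of all 13992 genes tested were called. Pecam1, an endothelial adhesion molecule, averaged 0.554 CPM in E47 KO and 203 CPM in E47 WT. Kdr, an endothelial growth factor receptor gene, went against the sum between the lines, at 3.33 CPM in E12 KO, 4.01 CPM in E12 WT, 0.806 CPM in E47 KO and 2.40 CPM in E47 WT. Between E12 WT and E47 WT, 8 of the 9 markers were called lower in E12 WT and Kdr was called higher (log2 difference 0.73, SE 0.291, edgeR adjusted p = 0.046). The 10 smooth muscle markers summed to 4058 to 4464 CPM in E47 KO, against 7883 to 8012 CPM in E47 WT. The part of these transcripts in the Krt18 level was not tested.

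Krt19, the small type I keratin of simple epithelia and mesothelium, was at 164 and 179 CPM in E12 KO and at 409.6 and 364 CPM in E12 WT, a log2 change of -1.18 (SE 0.0769). In the E47 line it was at 148 and 156 CPM in KO and at 12.3 and 13.6 CPM in WT, a log2 change of 3.54 (SE 0.0937). The order ran from E12 WT through E12 KO and E47 KO to E47 WT, with no overlap, although the knockouts lay close together. The summed level of mesothelial markers followed the same order, but single markers did not all do so. The sum of 10 such markers, none of them a keratin, was 1035 to 1061 CPM in E12 KO, 1498 to 1582 CPM in E12 WT, 395.5 to 395.7 CPM in E47 KO and 230.4 to 241 CPM in E47 WT. Wt1, Muc16 and Calb2 had no count in E47 WT, and Muc16 and Calb2 had none in E47 KO. Muc16 and Calb2 had at most 3 counts in any library. Of the 8 markers tested, 1 rose and 5 fell in E12 KO, where 46.4% of all genes were called, and 7 rose and 1 fell in E47 KO, where 55.2% were. The marker that rose in E12 KO was Msln, at 245 CPM against 205 CPM in E12 WT, and Bnc1 and Pdpn were not called there. The marker that fell in E47 KO was Gpm6a, at 121 CPM against 141 CPM in E47 WT. The part of the mesothelial markers in the Krt19 level was not tested.

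**Figure D2:**
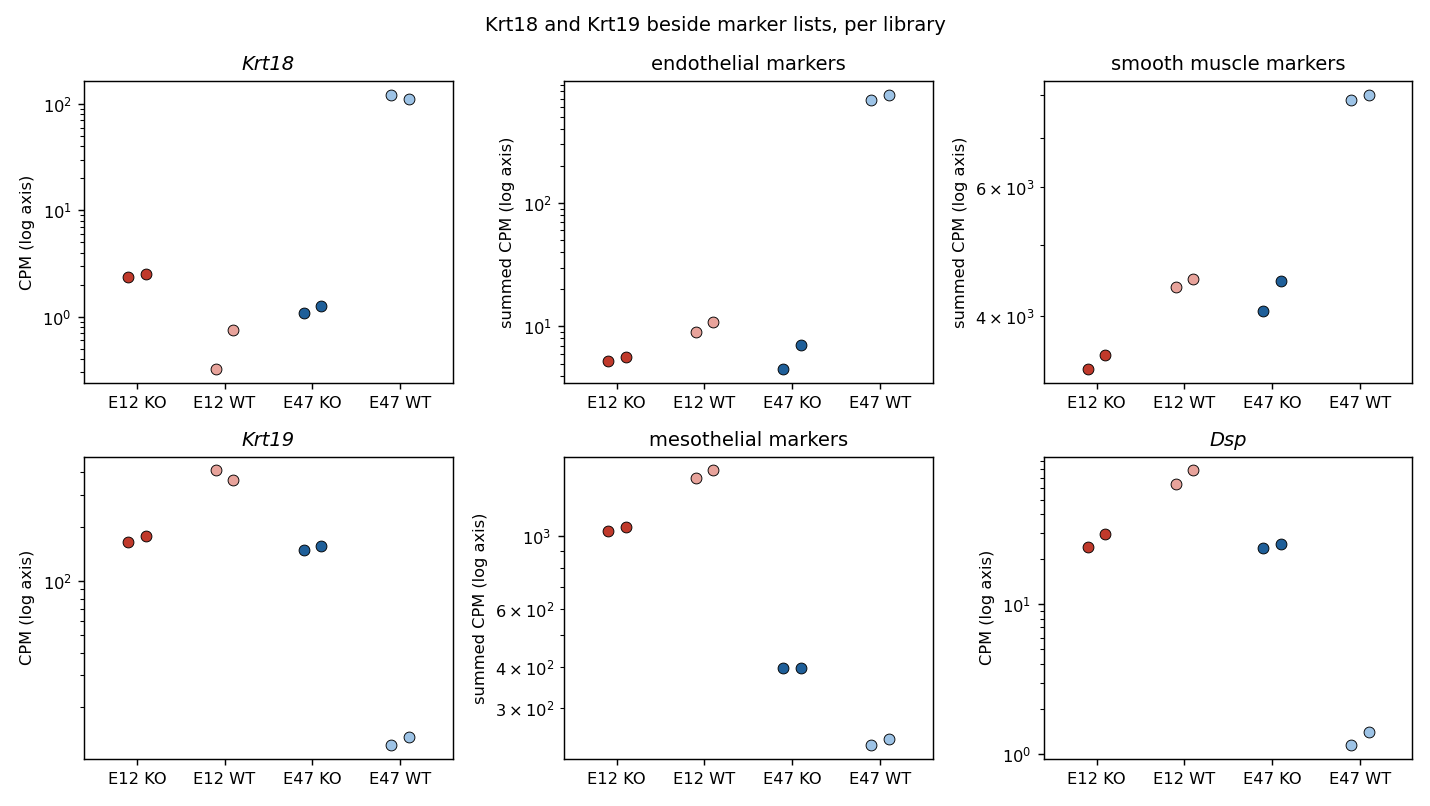
Levels per library on log axes, in CPM for single genes and in summed CPM for marker lists, by genotype, with 1 point for each library. Krt18, the endothelial sum and the smooth muscle sum are highest in E47 WT, whereas Krt19, the mesothelial sum and Dsp are highest in E12 WT and lowest in E47 WT.

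Krt14, the type I keratin of basal epidermal cells, was at 6.14 and 7.82 CPM in E12 KO and at 0.128 and 0.150 CPM in E12 WT, which is 2 counts in each WT library. The log2 change was 5.58 (SE 0.444). In E47 KO it was at 1.09 and 0.669 CPM, while E47 WT had 0 and 4 counts, a log2 change of 3.08 (SE 0.667). Without the second E47 WT library, which held all 4 counts, it was 6.90, and without the first it was 2.48. Both knockouts lay above both wild types, which overlapped each other. Krt5, its type II partner in the epidermis, did not accompany it, with 6 and 2 counts in E12 KO, 1 and 0 in E12 WT, 0 and 0 in E47 KO, and 1 and 0 in E47 WT. The 8 counts of Krt5 in E12 KO stand beside 257 counts of Krt14 there. Annotated Krt14 transcripts share 2.78% of their 100-base stretches with Krt16, another type I keratin, which had 3 counts in all libraries together.

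Per kb of exon, Krt80 made up most of the type II level in every genotype. Krt80, a type II keratin found in many epithelia, was at 19.4 and 21.5 CPM in E12 KO and at 62.1 and 61.9 CPM in E12 WT, a log2 change of -1.60 (SE 0.0953). It was at 27.7 and 25 CPM in E47 KO and at 7.67 and 5.93 CPM in E47 WT, a log2 change of 2.00 (SE 0.119). The 4 genotypes did not overlap, and E12 WT and E47 WT were again the extremes. Its exons overlap Gm35853 over 4.1% of their length, and without strand those reads cannot be told apart.

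Krt7, the type II partner of Krt19 in ductal and mesothelial cells, was a small part of the keratins. It was at 0.580 and 1.08 CPM in E12 KO and at 3.51 and 3.59 CPM in E12 WT, a log2 change of -2.13 (SE 0.350). It was at 0.572 and 1.34 CPM in E47 KO and at 0.143 and 0.195 CPM in E47 WT, a log2 change of 2.33 (SE 0.608). The knockouts overlapped each other and lay between the wild types. The E47 change rests on 31 and 7 counts, and without the second E47 KO library it was 1.66. Per kb of exon, Krt7 averaged 0.118 CPM per kb in E12 KO, 0.504 in E12 WT, 0.136 in E47 KO and 0.0240 in E47 WT, against 92.3, 209, 82.1 and 7.0 CPM per kb for Krt19.

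**Figure D3:**
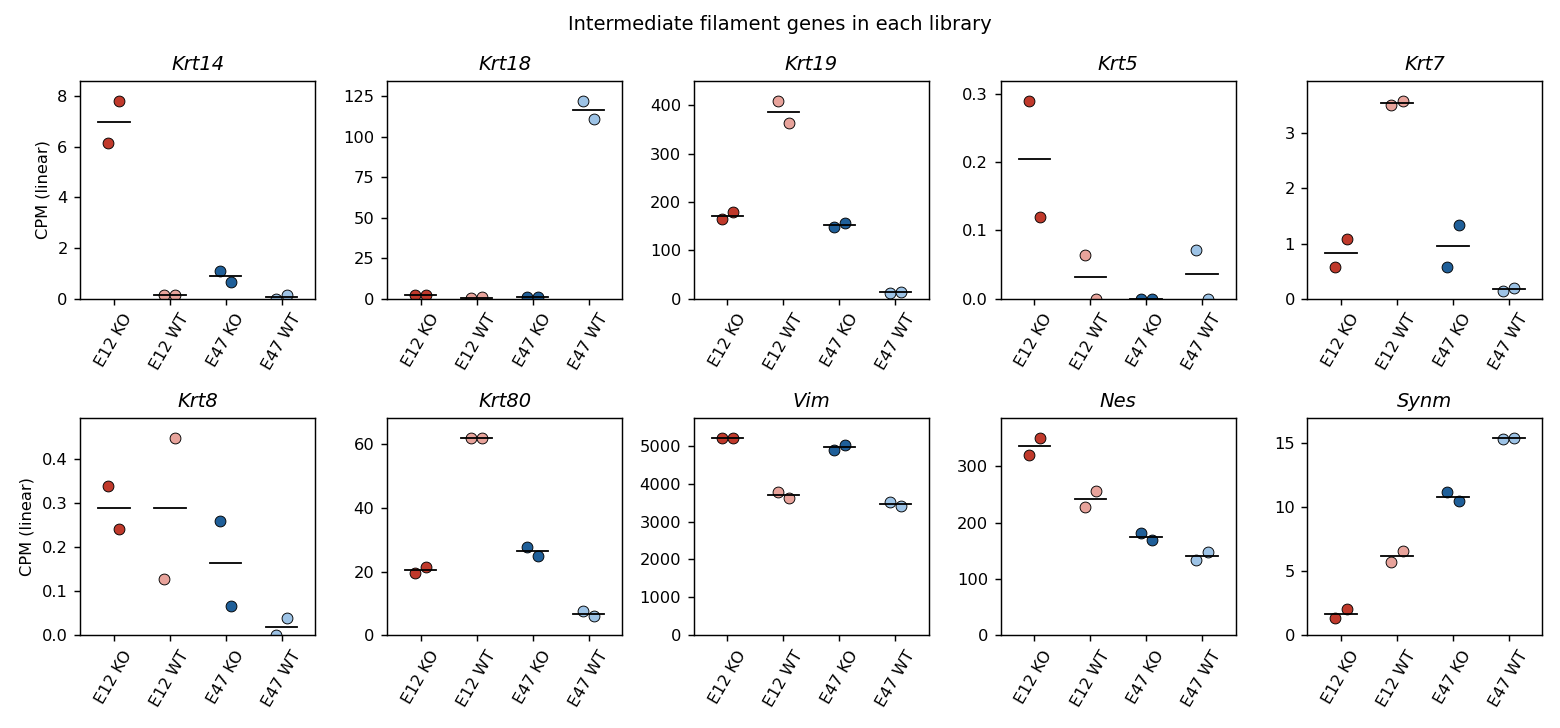
CPM of each of the 10 genes on linear axes that start at 0, with 1 point for each library and a line at the mean of the 2 libraries of a genotype. Krt7, Krt19 and Krt80 peak in E12 WT, Krt18 in E47 WT and Krt14 in E12 KO, while Vim is higher in both knockouts than in either wild type.

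Vim was by far the most abundant of the 10 genes and varied least. It was at 5217 and 5191 CPM in E12 KO and at 3782 and 3627 CPM in E12 WT, a log2 change of 0.49 (SE 0.0629). It was at 4879.7 and 5028 CPM in E47 KO and at 3507 and 3412 CPM in E47 WT, a log2 change of 0.52 (SE 0.0629). All 4 knockout libraries lay above all 4 wild-type libraries, and the changes of the lines differed by -0.03 (SE 0.0887). Per kb, Vim stood at 10.7 and 9.86 times the sum of all keratins in E12 KO, 3.38 and 3.62 times in E12 WT, 11.3 and 11.2 times in E47 KO, and 7.80 and 8.23 times in E47 WT.

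Nes, which encodes nestin and marks progenitor and proliferating mesenchymal cells, was at 320.2 and 351 CPM in E12 KO and at 229 and 256 CPM in E12 WT, a log2 change of 0.47 (SE 0.0792). It was at 181 and 169 CPM in E47 KO and at 134 and 148 CPM in E47 WT, a log2 change of 0.31 (SE 0.0804). Each knockout lay above its own wild type, but E12 WT lay above E47 KO, so Nes separated the lines as well. The start regions of Vim and Nes are shown as those of the non-keratin genes that were higher in each knockout. They come from chr2:13574061-13574360 and chr3:87970843-87971142, on the plus strand, from the same RefSeq table, and neither holds a CANNTG match in these 300 bases. Krt14 was also higher in each knockout, and its window in that table, not printed here, holds 1 match, CAGATG. That window, chr11:100205981-100206280 on the minus strand, lies inside the GENCODE gene, which runs from 100203162 to 100207548. The Vim window also lies inside its GENCODE gene, which starts at 13573927. RefSeq and GENCODE thus place these starts differently, and regions before the GENCODE starts were not searched.
Vim: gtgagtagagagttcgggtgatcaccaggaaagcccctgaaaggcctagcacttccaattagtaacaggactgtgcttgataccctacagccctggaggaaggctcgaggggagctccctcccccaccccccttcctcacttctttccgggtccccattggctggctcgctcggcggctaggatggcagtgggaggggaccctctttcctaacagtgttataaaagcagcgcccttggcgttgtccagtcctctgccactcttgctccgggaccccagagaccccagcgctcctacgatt
Nes: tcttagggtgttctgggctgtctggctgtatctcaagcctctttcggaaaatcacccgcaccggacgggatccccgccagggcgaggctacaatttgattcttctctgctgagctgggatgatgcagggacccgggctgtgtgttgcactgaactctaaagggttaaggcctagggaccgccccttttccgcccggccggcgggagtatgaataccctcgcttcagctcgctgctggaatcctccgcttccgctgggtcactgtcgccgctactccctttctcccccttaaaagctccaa

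Synm, which encodes the vimentin- and desmin-binding protein synemin of muscle, went the other way. It was at 1.35 and 2.04 CPM in E12 KO and at 5.75 and 6.58 CPM in E12 WT, a log2 change of -1.88 (SE 0.206). It was at 11.2 and 10.5 CPM in E47 KO and at 15.3 and 15.5 CPM in E47 WT, a log2 change of -0.50 (SE 0.123). The 4 genotypes did not overlap, and both E47 genotypes lay above both E12 genotypes. Reads on 6.4% of its exon length could belong to Gm45102 or Ttc23. Per kb, Synm averaged 0.214 CPM per kb in E12 KO and 0.777 in E12 WT, against 1097 and 781 CPM per kb for Vim.

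The genes fell into those that moved in opposite directions in the lines and those that moved the same way. Krt7, Krt19 and Krt80 were lower in E12 KO than in E12 WT and higher in E47 KO than in E47 WT, and Krt18 was higher in the first and lower in the second comparison. Krt14, Vim and Nes were higher, and Synm lower, in both knockouts. The 4 genotypes were fitted in 1 model, but the knockout comparisons share no libraries. Of the 8 genes that passed the filter, 4 were called higher and 4 lower in E12 KO, beside 21.9% and 24.5% of all genes tested. In E47 KO, 6 were called higher and 2 lower, beside 27.7% and 27.5%. The difference of the changes was called higher for 1 and lower for 4, beside 22.9% and 25.7% (48.6% in all). As the genes were chosen on these levels, nothing is read from those counts.

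**Figure D4:**
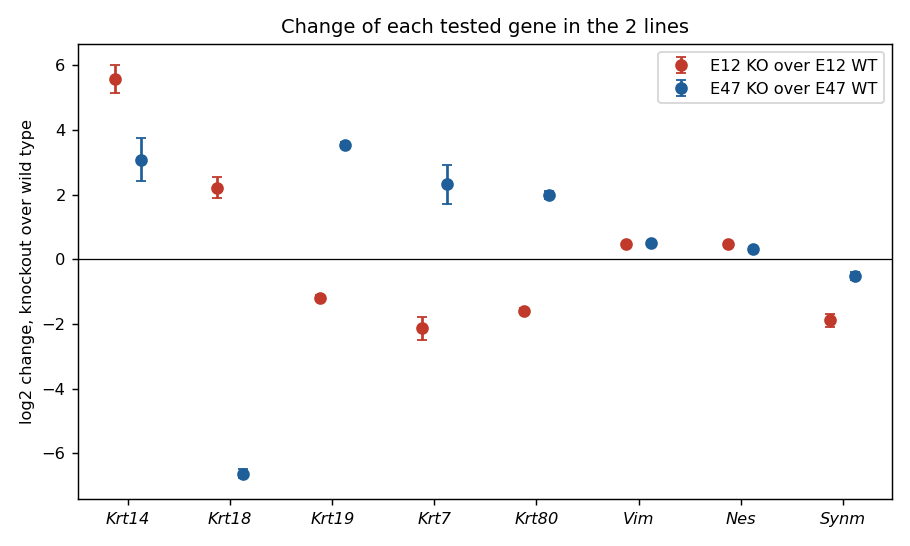
Log2 change of the 8 genes that passed the filter on low counts, knockout over wild type, in the E12 line and in the E47 line, with bars of 1 standard error. Krt18, Krt19, Krt7 and Krt80 lie on opposite sides of 0 in the lines, and Krt14, Vim, Nes and Synm lie on the same side.

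The wild types stood further apart than the knockouts for 4 of the 5 keratins among the 8 genes. The share of all genes with this pattern was not counted, and the wild-type comparison carries the endothelial difference of E47 WT. For Krt18 the log2 difference was -7.79 (SE 0.165) between E12 WT and E47 WT and 1.05 (SE 0.254) between E12 KO and E47 KO. For Krt19 it was 4.89 (SE 0.0958) between the wild types and 0.17 (SE 0.0771) between the knockouts. Krt80 differed by 3.23 (SE 0.112) between the wild types and by -0.37 (SE 0.101) between the knockouts. Krt7 differed by 4.27 (SE 0.467) between the wild types and by -0.18 (SE 0.445) between the knockouts. Krt14 was the exception, at 0.43 (SE 1.07) between the wild types and 2.93 (SE 0.292) between the knockouts. Its wild-type value rests on few counts and was 4.25 without the second E47 WT library and -0.17 without the first. Nes and Synm kept a difference of the same sign in both, at 0.78 and 0.94 for Nes and at -1.33 and -2.70 for Synm, and Vim was at 0.10 and 0.07. Between the wild types 4 of the 8 were called higher and 2 lower in E12, beside 27.8% and 27.6% of all genes tested (55.4% in all). Between the knockouts 3 were called higher and 2 lower in E12, beside 25.9% and 27.0% (52.9% in all). As the genes were picked with these levels known, nothing is read from the counts of calls. These comparisons use the same libraries as the knockout comparisons, so their values are not independent of them.

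The rest of the keratin family was nearly silent. Of 46 other keratin genes listed, 45 were in the table, 23 had a count in some library and 2 passed the filter. Krt13, a type I keratin of oesophageal-type epithelia, averaged 5.12 CPM in E47 KO and 1.78 CPM in E47 WT and rose (log2 change 1.56, SE 0.200, edgeR adjusted p = 1.1e-05). In E12 KO it averaged 6.85 CPM, against 5.12 CPM in E12 WT (0.42, SE 0.162, adjusted p = 0.045), and this call was lost on leaving out any 1 E12 library (adjusted p 0.066 to 0.20) and with DESeq2 (0.28) or a fit of the E12 libraries alone (0.054). Krt10, a type I keratin of suprabasal epidermis, rose in E47 KO (1.01, SE 0.280, adjusted p = 0.0065), a call lost without the first E47 KO library (0.92, adjusted p = 0.058) and with DESeq2 (1.01, 0.069). Krt10 was at -0.19 (SE 0.271) in E12 KO. The median log2 change of these 2 genes was 0.11 in E12 KO and 1.29 in E47 KO, against -0.01 and 0.01 over all genes tested.

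Des was lower in both knockouts, and desmin transcripts were scarce in every genotype. Of 15 other filament genes listed, 7 passed the filter, of which 2 rose and 3 fell in E12 KO (median 0.06) and 0 rose and 3 fell in E47 KO (median -0.23), by edgeR at an adjusted p under 0.05. Over all genes tested, 46.4% were called in E12 KO and 55.2% in E47 KO, so the list is not set apart by these counts. The neurofilament gene Nefl and the lens gene Bfsp2 had no count in any genotype. Des, which encodes desmin, the muscle filament protein, averaged 1.46 CPM in E12 KO and 2.82 CPM in E12 WT (log2 change -0.94, SE 0.253, adjusted p = 0.0071). It averaged 1.87 CPM in E47 KO and 3.47 CPM in E47 WT (-0.89, SE 0.228, adjusted p = 0.0041). Both Des calls were lost with DESeq2 (adjusted p = 0.065 and 0.059), and the E47 call also without the first E47 KO library (-0.71, adjusted p = 0.057). Per kb, Des stood at 0.390 to 0.924 CPM per kb on average, under Vim in every genotype by a wide margin.

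Lamins line the nucleus. Lmna, encoding lamins A and C, was at 586 CPM in E12 KO, 533 CPM in E12 WT, 549 CPM in E47 KO and 589.9 CPM in E47 WT, with no call in either line (adjusted p = 0.092 and 0.18). Lmnb1, encoding lamin B1, rose to 194 CPM in E12 KO, against 92.1 CPM in E12 WT (log2 change 1.07, SE 0.0717, adjusted p = 1.5e-08). It was at 61.2 CPM in E47 KO and 57.6 CPM in E47 WT (0.09, adjusted p = 0.35), and the changes of the lines differed by 0.98 (SE 0.104, adjusted p = 2.0e-06). Sync, encoding the desmin-binding protein syncoilin, fell in E12 KO (-0.40, SE 0.102, adjusted p = 0.0049). Iffo1, a filament family orphan, fell in both knockouts (-0.76 and -0.48, adjusted p = 7.0e-05 and 0.00087).

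Dsp and Ppl, which link filaments to the membrane, fell in E12 KO and rose in E47 KO. Of 25 linker, desmosome and hemidesmosome genes, 16 passed the filter, of which 3 rose and 7 fell in E12 KO (median -0.26) and 7 rose and 6 fell in E47 KO (median 0.05). Over all genes tested, 21.9% rose and 24.5% fell in E12 KO, and 27.7% rose and 27.5% fell in E47 KO. Dsp encodes desmoplakin, which ties keratin filaments to desmosomes. It fell to 24.3 and 29.6 CPM in E12 KO, against 63.6 and 78.2 CPM in E12 WT (log2 change -1.40, SE 0.108, edgeR adjusted p = 7.3e-08). It rose to 23.8 and 25.2 CPM in E47 KO, against 1.15 and 1.40 CPM in E47 WT (4.22, SE 0.191, adjusted p = 1.0e-10). The difference of the changes was -5.62 (SE 0.220, adjusted p = 3.2e-11). Ppl, encoding the plakin periplakin, fell in E12 KO by 0.98 (SE 0.0791, adjusted p = 1.2e-07) and rose in E47 KO by 3.52 (SE 0.0925, adjusted p = 2.9e-13).

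Desmosomal armadillo proteins were divided. Jup, encoding plakoglobin, rose in both knockouts, by 0.33 in E12 and 1.08 in E47 (adjusted p = 0.0014 and 9.9e-09). Pkp2, encoding plakophilin 2, rose by 0.33 and 0.67 (adjusted p = 0.0021 and 1.0e-05). Pkp1, encoding plakophilin 1, fell by 1.1 and 1.04 (adjusted p = 1.8e-08 and 1.1e-08). Pkp4, encoding plakophilin 4, rose in E12 KO and fell in E47 KO (log2 change 0.40 and -0.30, edgeR adjusted p = 0.00023 and 0.0018). The 7 desmosomal cadherin genes listed, whose products bind these proteins, had 38 counts over 8 libraries, 35 of them on Dsc2. Of those listed, Dsg1a, Dsg1b, Dsg3 and Dsc1 had none. Jup and the plakophilins also occur at other junctions.

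Hemidesmosomal integrin genes fell in E12 KO. Itgb4, whose product binds keratin filaments through plectin, fell to 1.84 and 1.5 CPM in E12 KO, against 18.4 and 17.6 CPM in E12 WT (log2 change -3.41, SE 0.155, adjusted p = 2.0e-10). Itga6, its partner chain, fell to 10.001 and 8.54 CPM, against 41.4 and 43.1 CPM in E12 WT (-2.18, SE 0.0963, adjusted p = 1.6e-10). In E47 KO, Itga6 was at 0.08 (adjusted p = 0.44) and Itgb4 at 0.34 (adjusted p = 0.037), a call lost on leaving out any 1 E47 library (adjusted p 0.054 to 0.14), with DESeq2 (0.24) and with no filter on low counts (0.056). The changes of the lines differed by -3.75 for Itgb4 (SE 0.207, adjusted p = 1.5e-09) and -2.26 for Itga6 (SE 0.129, adjusted p = 2.0e-09).

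The long plakin genes were uneven between the libraries of E12 WT. Dst, Macf1 and Plec, which encode dystonin, a spectraplakin and plectin, are given here after their values were seen. Dst was at 384 and 1035 CPM in the 2 E12 WT libraries, and Macf1 was at 593 and 1016 CPM. Neither was called in E12 KO, but without the second E12 WT library Dst was at 1.16 and Macf1 at 0.28, both past the test. Plec was at 740 and 871 CPM in E12 KO and at 635 and 937 CPM in E12 WT. In the E47 line, Dst was at 345 and 380 CPM in KO and at 719 and 670 CPM in WT. Macf1 was at 340 and 353 CPM in E47 KO and at 647 and 617 CPM in E47 WT. Dst and Macf1 were called lower in E47 KO (log2 change -0.94 and -0.87, edgeR adjusted p = 0.011 and 0.00059).

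**Figure D5:**
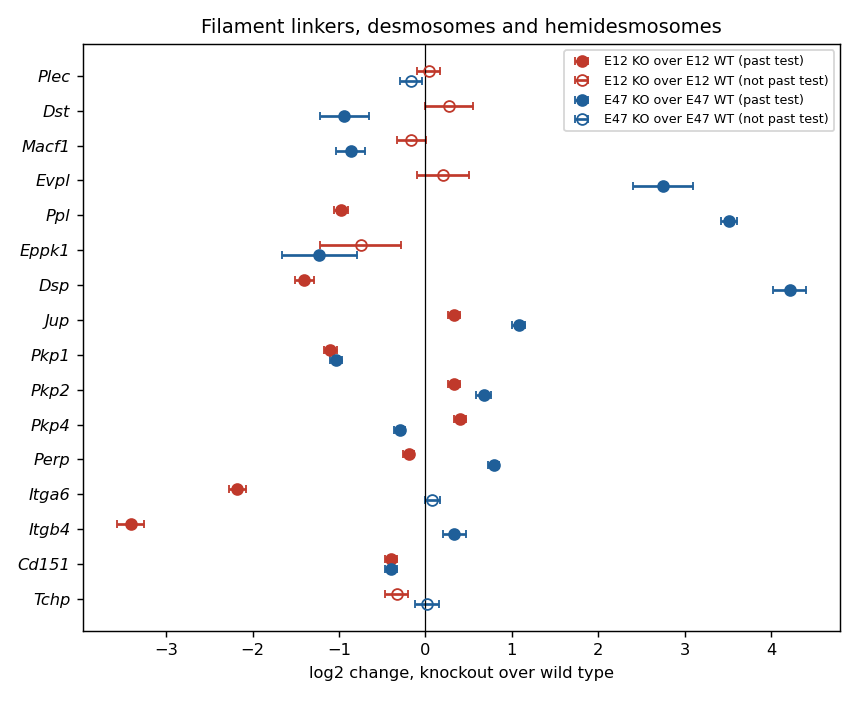
Log2 change, knockout over wild type, of 16 linker, desmosome and hemidesmosome genes in the E12 line and in the E47 line, with bars of 1 standard error. Filled points passed the edgeR test and open points did not, with Dsp and Ppl on opposite sides of 0 in the lines and Itgb4 and Itga6 lowest in E12 KO.

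Most regulators of epithelial keratin programmes were barely detected. Of 16 listed, 5 passed the filter, of which 1 rose and 1 fell in E12 KO (median 0.04) and 2 rose and 1 fell in E47 KO (median 0.25). These counts stand beside 46.4% and 55.2% of all genes called in E12 KO and E47 KO, and nothing is read from them. Grhl2 had no count in E12 KO, E12 WT or E47 KO, and Ovol2, Esrp1 and Prdm1 had none in any genotype. Trp63, encoding the p63 factor that drives Krt5 and Krt14 in epidermis, averaged 0.422 CPM in E12 KO, 0.432 CPM in E12 WT, 0.873 CPM in E47 KO and 1.21 CPM in E47 WT, with no call in either line. Klf5, a regulator of basal epithelial genes, fell in E12 KO (log2 change -1.49, SE 0.170, adjusted p = 4.5e-06) and rose in E47 KO (1.36, SE 0.199, adjusted p = 4.1e-05). Klf4, a factor of epidermal barrier formation and smooth muscle modulation, rose in E47 KO (1.15, SE 0.0656, adjusted p = 1.4e-09) and was at -0.07 in E12 KO (adjusted p = 0.43). Others went the other way. Esrp2 rose in E12 KO (0.46, SE 0.165, edgeR adjusted p = 0.032) and was at 0.25 in E47 KO (adjusted p = 0.30). Grhl1 fell in E47 KO (-1.62, SE 0.492, adjusted p = 0.012), on 4 to 18 counts a library, and was at 0.37 in E12 KO (adjusted p = 0.64).

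Epithelial markers were present in part. Of 13 listed, 5 passed the filter, of which 1 rose and 4 fell in E12 KO, where 46.4% of all genes were called, and 1 rose and 1 fell in E47 KO, where 55.2% were. Epcam, a general epithelial surface marker, had 1 count in all 8 libraries. Cdh1, encoding E-cadherin, averaged 18.0 CPM in E12 KO and 10.8 CPM in E12 WT, and rose (0.73, SE 0.129, adjusted p = 0.00032). It averaged 36.4 CPM in E47 KO and 0.332 CPM in E47 WT, and rose (6.87, SE 0.216, adjusted p = 1.7e-12). St14, encoding the protease matriptase, fell in E12 KO (-2.43, adjusted p = 1.2e-06), as did Spint2, encoding an inhibitor of it (-1.43, adjusted p = 6.3e-07). Cldn3 fell in both knockouts (-6.93 in E12 and -5.33 in E47, edgeR adjusted p = 0.00032 and 0.0098). It had 11 and 14 counts in E12 WT, 6 and 5 counts in E47 WT, and 0 counts in every knockout library.

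Genes with the most similar pattern were ranked by Pearson correlation of log2(CPM + 0.5) over the 8 libraries among 11087 genes, as a description, with no p. The 8 points are 4 genotypes with 2 libraries each, so they are not independent. For Krt19 the 3 most similar were Mboat1 (r = 0.998), Ppl (0.998) and Dsp (0.998), and Ppl and Dsp also spanned a similar log2 range, 4.95 and 5.58 against 4.998 for Krt19. For Krt80 they were Flrt1 (0.997), Sult2b1 (0.995) and Pak4 (0.995). For Synm they were Cadm1 (0.997), Gcnt2 (0.993) and Cdo1 (0.993). For Krt18 they were Arel1, Tbl1xr1 and Twist1 (0.992 to 0.993), whose log2 ranges of 0.84 to 1.34 were far under the 7.23 of Krt18. For Vim, Ptms came first (0.994), for Nes, Tbl1x (0.999), for Krt7, Rfx5 (0.992), and for Krt14, Ubtf (0.9995), whose log2 range was 0.67 against 4.06 for Krt14.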

How the data were processed

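Counts per gene were used as deposited by the authors, as whole numbers and not normalized, with 1 column for each library. Per the submitters' processing notes, FastQC, HISAT and featureCounts were used with the build GRCm38 (mm10). Their versions and settings, the annotation and how multi-mapping reads were handled: not given in the sources used here. Per the labels' protocols the libraries do not keep strand.

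The analysis used edgeR 4.0.16 under R 4.3.3. The filterByExpr rule left 13992 genes, TMM factors scaled the libraries, and 1 model of the 4 genotypes without covariates was fitted to all 8 libraries, with 4 residual degrees of freedom. Each contrast had a quasi-likelihood F test, with p-values adjusted over all genes tested by Benjamini-Hochberg at 0.05. The procedure was checked on simulated data. Alternatives were DESeq2 1.42.0, RLE factors, no filter, fits of the 2 groups compared, and leaving out each library. Positions, exon lengths and 100-base stretches come from GENCODE M21 (GRCm38) and start regions from RefSeq, which held 8 of the 10 genes and not Krt19 or Krt80.

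The genes and lists were chosen with earlier results of these data known. Named were the 10 genes, from each list up to 4 genes with the lowest p per contrast, the 3 most similar genes for each tested member with a mean CPM of at least 2, and Tcf3, Acta2, Myh11, Cnn1, Des, Lmna, Cdh1, Epcam, Msln and Wt1. Genes named for having no count, and Dst, Macf1, Plec, Pkp4 and the desmosomal cadherins, were named after their values were seen. Lists of fibroblast markers and of Schwann and neural crest markers were also summed. Fibroblast markers were at 110.1 to 133 CPM in E12 KO, 92.1 to 102 CPM in E12 WT, 236 to 264 CPM in E47 KO and 78.5 to 90.4 CPM in E47 WT. Schwann and neural crest markers summed to at most 12.5 CPM in any library. Reads are not independent molecules, so intervals cover counting error only.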

Additional observations from a re-analysis of the deposited data

Results flagged for a closer look

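Krt7, Krt18, Krt19 and Krt80 moved in opposite directions in the lines. Their knockout libraries lay on opposite sides of their wild-type libraries in E12 and in E47, with no overlap. Over all 13992 genes tested, 71.3% did not overlap in the E12 comparison and 77.6% in the E47 comparison. These shares cover either direction. The share of all genes that moved in opposite directions was not counted, so nothing is read from how many genes did so here. The E12 change minus the E47 change, on the log2 scale, was -4.45 for Krt7, 8.85 for Krt18, -4.72 for Krt19 and -3.60 for Krt80. These genes were picked with their levels known, so the difference is given as a description and nothing is read from its test.

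Other genes differed between the lines by edgeR's test of the difference at an adjusted p under 0.05. The difference was -5.62 for Dsp, -4.50 for Ppl, -3.75 for Itgb4, -2.26 for Itga6 and -0.75 for Jup among the linkers, and -6.14 for Cdh1, -2.30 for St14 and -1.30 for Spint2 among the epithelial markers. It was -2.85 for Klf5, -1.22 for Klf4, -1.14 for Krt13, 0.98 for Lmnb1 and 0.59 for Iffo2.

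The difference of -1.21 for Krt10, of -0.34 for Pkp2, of 0.24 for Lmna and of 1.99 for Grhl1 was past the test in the fit of all libraries. Each was lost in several alternatives. Without single libraries the adjusted p reached 0.14 for Krt10, 0.067 for Pkp2, 0.14 for Lmna and 0.16 for Grhl1.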

How the results depend on the processing

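Called genes numbered 6490 in E12 KO, 7728 in E47 KO, 6801 for the difference, 7745 between the wild types and 7401 between the knockouts. With DESeq2 they were 4926, 5961, 5337, 6208 and 5794, and without single libraries they ranged over 5320 to 6409, 5867 to 8161, 5717 to 6904, 6139 to 7795 and 6093 to 7833. All stayed within 1.5 times of the fit reported, as did the counts over the listed genes. For the tested members, 463 values under alternatives kept their side of the threshold, 4 dropped below it and 3 passed it. The 4 were Krt7 in E47 KO without its second library (1.66), Nes in E47 KO without the first E47 WT library (0.24), and Krt80 between the knockouts without the first library of either (-0.29 and -0.29). As the members were chosen on these levels, nothing is read from their calls or from how many kept their side. Without the second E12 WT library, Macf1 stood at 0.28 in E12 KO (-0.16 with all libraries, -0.50 without the first) and Dst between the wild types at -0.85 (0.03 with all, 0.58 without the first), and the values without a library were past the test. Other named genes had 302 calls lost, 47 gained and 2 reversed under alternatives, with 5289 that kept their side. The causes were not tested. The fit of only the groups compared could not be made for the difference. No paired analysis was possible because the labels give no replicate numbers that the groups share. Leaving out a library left 1 in its group, assumed to vary like the others. With 2 libraries a group and 26 Krt8 and 10 Krt5 counts in all, depth limits statements on those genes.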
